A study of Mus musculus with 12 samples.

Results

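The mitochondrial carrier genes of the Slc25 family and the uncoupling protein genes Ucp1, Ucp2 and Ucp3 were followed in liver RNA-seq from 24 h-fasted mice. The set holds 49 of the 56748 genes in the count table, namely every protein-coding gene named Slc25a and a number, together with the Ucp genes. The carnitine-acylcarnitine carrier Slc25a20 was left out by this rule and is given among related transport genes. Choice of the genes used no measured value. Livers came from 4 Cpt2 liver-specific knockouts (SKO), 4 Atf3 and Cpt2 liver-specific double knockouts (DKO) and 4 controls (WT) with floxed Cpt1a, Cpt1b and Cpt2 and no stated Cre. All 12 mice had been fasted for 24 h, and per the study's methods liver knockouts came from breeding floxed mice to Albumin-Cre mice. Which liver cells kept the genes was not tested. The labels name no age or sex, and they do not give the controls as floxed for Atf3, whereas the study's text describes floxed controls of the double knockout line that carry floxed Atf3 and Cpt2.

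Carriers of this family sit mostly in the inner mitochondrial membrane, where each moves a small metabolite such as ATP, phosphate, citrate, ornithine or glutathione between cytosol and matrix. Their shared fold is built from repeats of a pair of membrane helices, and the uncoupling proteins have the same fold. UCP1 lets protons back into the matrix of brown fat, while UCP2 and UCP3 carry out less settled tasks in other tissues. In liver the carriers feed the urea cycle, gluconeogenesis, heme synthesis and the export of citrate. Cpt2 encodes the inner-membrane step of the carnitine shuttle, without which long-chain fatty acids are not oxidized in mitochondria, and Atf3 encodes a stress-induced transcription factor of the ATF/CREB family.

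Reads counted on genes were 14710304 to 20030055 per liver. Levels are CPM, that is counts divided by the library total after TMM scaling over the 12 livers, and the limit that a count of 0 allows is 3 counts, or 0.145 to 0.195 CPM, for counting error alone. Cpt2 was 198.5 to 250.4 CPM in WT and 99.9 to 158.5 CPM in the knockouts, and Atf3 was 1.11 to 2.14 CPM in WT, 14.5 to 54 CPM in SKO, 7.91 to 13.5 CPM in DKO 1 to DKO 3 and 0.266 CPM in DKO 4. Every DKO liver was thus below every SKO liver, the direction of the label, while DKO 1 to DKO 3 were above and DKO 4 below every WT liver. The log2 fold change of Atf3 in DKO against SKO was -1.91 ± 0.73 (SE, edgeR unadjusted p = 0.0243, adjusted p = 0.701), and -1.51 ± 0.37 without DKO 4 (adjusted p = 0.25). Counts cover the whole gene and do not tell its deleted part from the rest. DKO stands for the livers labelled DKO, and how much Atf3 remained in hepatocytes was not tested. SKO 3 and DKO 4 had 18063 and 20855 counts of Xist with at most 2 counts summed over Ddx3y, Eif2s3y, Kdm5d and Uty, where the other livers had at most 19 of Xist and at least 2741 of these Y-linked genes. The study's text describes male livers for RNA-seq. Results for DKO livers are therefore given with and without DKO 4. By edgeR at an adjusted p under 0.05, 5 of 8 hepatocyte markers were lower in SKO than in WT and none higher, where 15.4% of all genes were lower. In DKO 1 was lower with all livers, where 4.39% of all genes were, and 6 without DKO 4, where 17.5% were. They summed to 83300 to 103000 CPM in WT, 47300 to 75800 in SKO, 45300 to 55800 in DKO 1 to DKO 3 and 100000 in DKO 4. Most of this sum is Alb, with 51800 to 65200 CPM in WT, 22500 to 44500 in SKO and 74200 in DKO 4, while Apoa1 was lowest in DKO 4, at 5130 CPM. Of 5 cholangiocyte markers, 4 were tested and Sox9 and Spp1 were lower in SKO, and the list summed to 27.9 to 33.3 CPM in WT, 7.41 to 14.4 in SKO, 9.6 to 18.7 in DKO 1 to DKO 3 and 31.1 in DKO 4. Most of the sum in DKO 4 was Spp1, at 27.4 CPM, while Sox9 had its lowest DKO level there, at 0.799 CPM. Of 7 stellate cell markers, 1 was called higher in SKO, where 16.7% of all genes were, and the list summed to 170 to 200 CPM in WT, 233 to 327 in SKO, 215 to 277 in DKO 1 to DKO 3 and 255 in DKO 4. The part of these cell types in the carrier levels was not tested. In bulk tissue, fewer cells of a type and less RNA per cell cannot be told apart.

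The carriers together took 0.516 to 0.558% of the counts in WT, 0.615 to 0.738% in SKO, 0.658 to 0.697% in DKO 1 to DKO 3 and 0.575% in DKO 4. These are shares of raw totals without TMM scaling, and Slc25a47 weighs heavily on them. It had 10865 to 15055 counts in WT and 21828 to 44766 in SKO livers, so the shares do not describe the other members. To compare levels between genes, CPM was divided by the gene length in the table (RPKM). Slc25a5, the adenine nucleotide translocase ANT2 that exchanges ADP for ATP, had 280 to 302 RPKM in WT. Slc25a47, a carrier found mainly in hepatocytes whose substrate is disputed, had 228 to 289 RPKM in WT, a range that overlapped that of Slc25a5. In SKO livers Slc25a47 had 380 to 767 RPKM, above the 305 to 368 RPKM of Slc25a5 in every liver. Slc25a39, a glutathione importer, followed in WT with 159 to 180 RPKM. The next in mean RPKM in WT were Slc25a10, Slc25a13, Slc25a15, Slc25a22, Slc25a1, Slc25a3 and Slc25a25, with means from 105 down to 56.5. Slc25a10, the malate and succinate carrier, had 92.6 to 115 RPKM in WT, Slc25a13, the liver aspartate/glutamate carrier citrin, 96.1 to 108 RPKM, and Slc25a15, the ornithine carrier of the urea cycle, 87.6 to 104 RPKM. These neighbors did not differ beyond their spread.

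**Figure D1:**
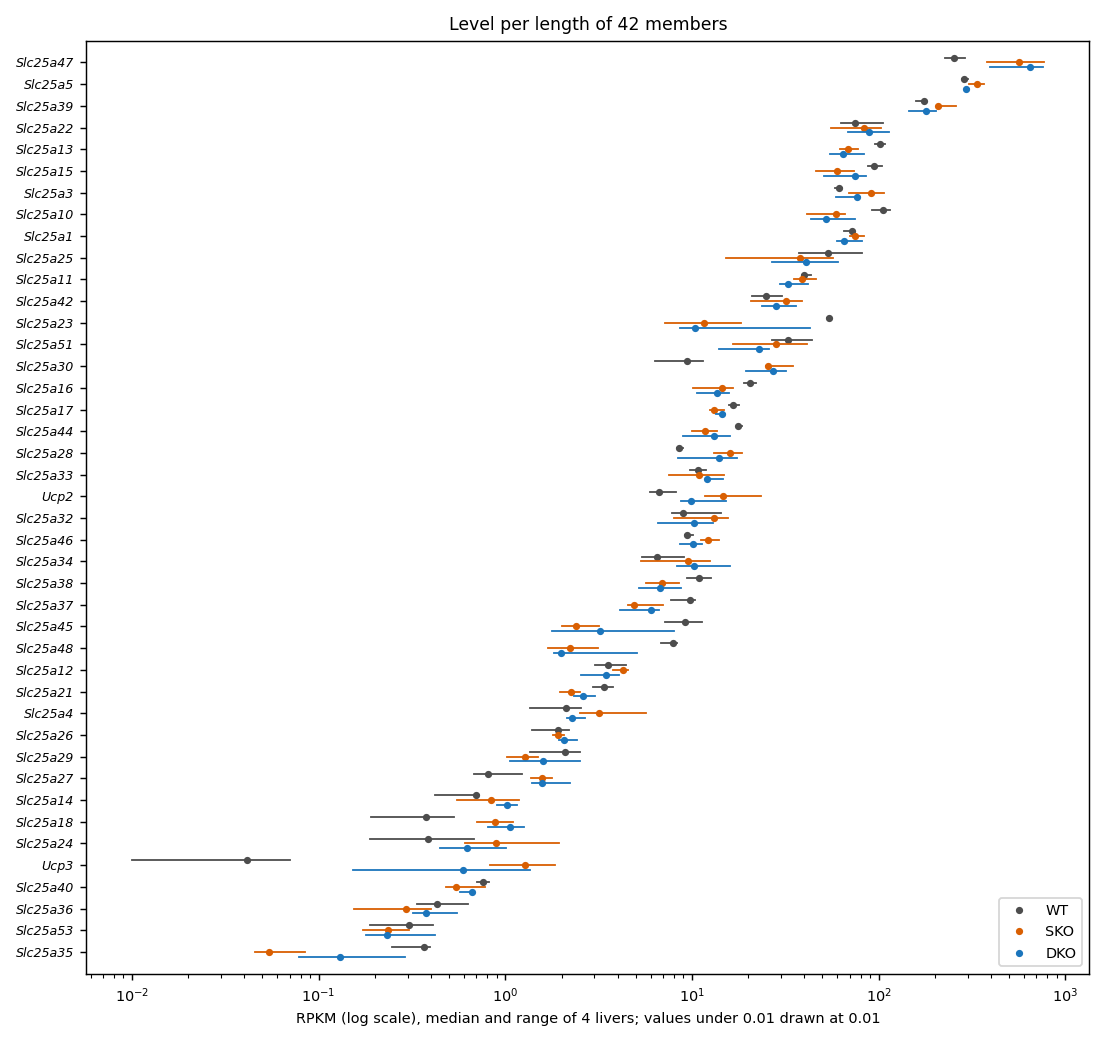
Level of 42 members in RPKM on a log axis, with a dot at the median and a line over the range of the 4 livers of each genotype. Slc25a47 moved from 228 to 289 RPKM in WT to 380 to 767 RPKM in SKO, and Slc25a23, Slc25a45 and Slc25a48 had their SKO ranges wholly below those of WT.

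At the low end, 6 members had at most 9 counts in any liver and did not pass the filter on low counts in any comparison. Ucp1 had 1 count in DKO 3 and none elsewhere, and Slc25a54 had none in any liver. Slc25a41, an ATP-Mg/phosphate carrier, had 2 counts in DKO 3 and none elsewhere. Slc25a2, Slc25a31 and Slc25a43 were the others. Lep, a fat marker, had no counts in any liver, and the 5 adipocyte markers summed to at most 0.674 CPM.

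The main question was which carriers differed in fasted livers of the Cpt2 knockout. Of 43 members tested, 11 were higher and 14 lower in SKO than in WT by edgeR's quasi-likelihood test at a Benjamini-Hochberg adjusted p under 0.05. These are 25.6% and 32.6% of the members tested, where 16.7% of all genes tested were called higher and 15.4% lower. Scaled by library size alone, which raised all log2 fold changes by a median of 0.174, 13 members were higher and 12 lower, where 26.4% and 11% of all genes were. Ucp3 and Slc25a35 are among them and passed the filter on low counts only through the livers in which they were higher, and without both, 10 and 13 of 41 members were called. The median log2 fold change was 0.03 over the members and 0.03 over all genes. Each SKO liver lay above each WT liver for 11 members and below for 14, where this held for 17.2% and 16.1% of all genes tested. Leaving out each of the 8 livers in turn kept 19 of the 25 calls throughout, and Slc25a4, Slc25a17, Slc25a18, Slc25a24, Slc25a27 and Slc25a46 lost theirs without at least 1 liver.

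Of the uncoupling proteins and their near relatives, 4 of 5 tested were called higher in SKO livers and none lower, where 16.7% of all genes were called higher. The 4 include Ucp3, which met the filter on low counts only through SKO livers, and Slc25a27, which lost its call without WT 2 or WT 4. Their CPM summed to 77.0 to 106 in WT, 208 to 335 in SKO, 184 to 235 in DKO 1 to DKO 3 and 204 in DKO 4. Ucp3, best known from skeletal muscle, had 0, 1, 3 and 4 counts in WT, 74, 51, 111 and 57 in SKO and 30, 37, 84 and 9 in DKO livers. All SKO livers stood far above WT, and no WT liver had more than a few reads. A gene that enters the test through 1 genotype has to differ, so these values are a description. Summed over livers, SKO had 34.9 times the scaled WT counts, with an exact 95% interval of 17.5 to 81.6 that covers counting error only. The 6 skeletal muscle markers summed to 0.468 to 1.21 CPM in WT and 0.325 to 1.48 CPM in SKO livers. Only Mylpf among them was tested, with a log2 fold change of -0.10 in SKO (adjusted p = 0.919), and Acta1, Ckm, Myh1 and Myh4 had at most 3 counts in any liver.

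Ucp2, a widely expressed relative that is abundant in immune cells, had 57.4, 44.5, 41.5 and 48.7 CPM in WT, 114, 91.3, 165 and 82.0 CPM in SKO and 61.4, 77.0, 61.9 and 106 CPM in DKO livers. Every knockout liver lay above every WT liver, and the highest of each knockout genotype were SKO 3 and DKO 4. The log2 fold change in SKO was 1.23 ± 0.21 (SE, edgeR adjusted p = 0.000958). Of 8 macrophage markers, all tested, Cd68 was called higher in SKO and none lower, where 16.7% and 15.4% of all genes were, and the list summed to 222 to 455 CPM in WT, 208 to 507 in SKO, 129 to 201 in DKO 1 to DKO 3 and 449 in DKO 4. In DKO none was higher and 1 lower than in WT with all livers, where 6.06% and 4.39% of all genes were, and without DKO 4, 1 was higher and 6 lower, where 18.4% and 17.5% were. The highest sums of their genotypes were in WT 1, SKO 3 and DKO 4, the livers that also had the highest Ucp2. Cd68 by contrast was lowest of its genotype in SKO 3 (24.2 CPM) and in DKO 4 (9.48 CPM). The part of macrophages in the Ucp2 level was not tested. Ucp2 and Ucp3 are neighbors on chromosome 7, with 6.9 kb between them in the RefSeq annotation of GRCm38.

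Slc25a30, a relative of the uncoupling proteins that was described in kidney, had 40.7, 45.4, 28.8 and 52.3 CPM in WT, 114, 118, 158 and 115 CPM in SKO and 141, 147, 106 and 88.7 CPM in DKO livers. WT did not overlap with either knockout, and the log2 fold change in SKO was 1.59 ± 0.19 (SE, edgeR adjusted p = 7.8e-05). Slc25a27, also called UCP4 and known from brain, rose by 0.85 ± 0.23 on the log2 scale from 2.66 to 4.81 CPM in WT to 5.40 to 7.01 CPM in SKO livers (edgeR adjusted p = 0.0149). Slc25a14, or UCP5, had a log2 fold change of 0.44 and an adjusted p of 0.324.

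**Figure D2:**
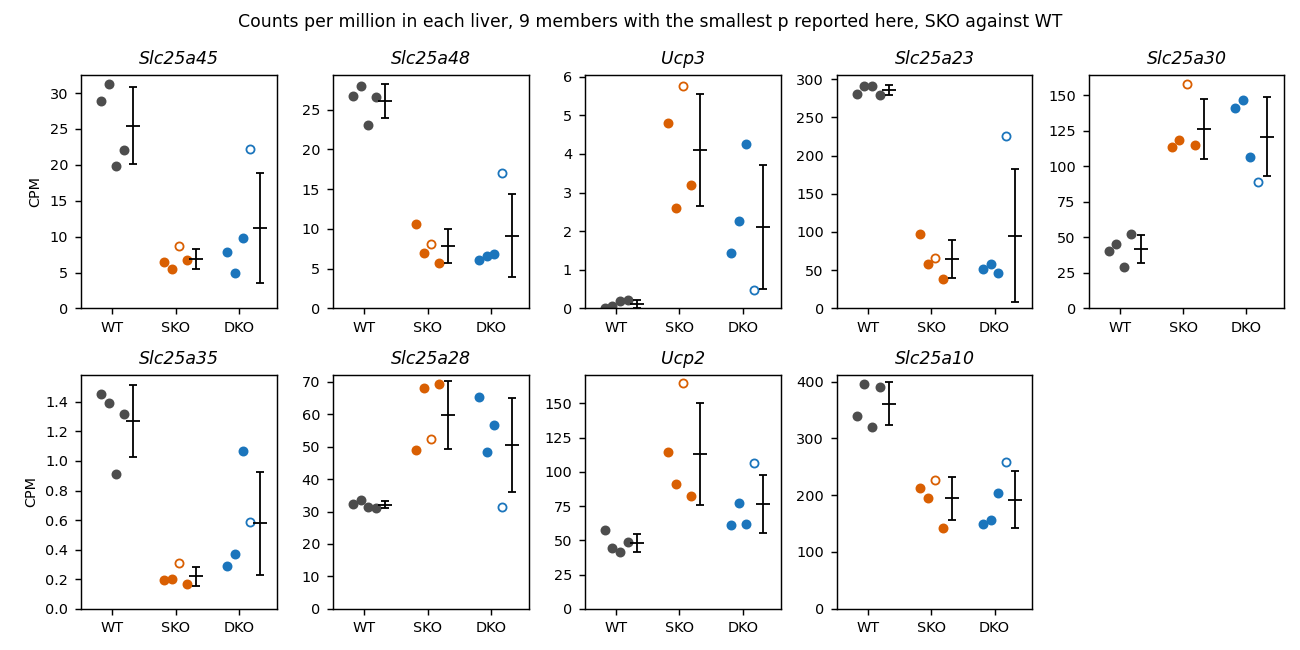
CPM in each liver for 9 of the 10 members with the smallest p in SKO against WT, with bars for the mean and SD of the 4 livers and open circles for SKO 3 and DKO 4. WT and SKO points do not overlap in any panel, and DKO 4 lies near the WT points for Slc25a23 (226 CPM), Slc25a28 (31.5 CPM) and Slc25a45 (22.3 CPM).

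Among carriers of adenine nucleotides, phosphate and CoA, 3 of 9 tested were higher and 3 lower, where 16.7% and 15.4% of all genes were. Slc25a23, an ATP-Mg/phosphate carrier regulated by calcium, had 280, 291, 291 and 279 CPM in WT, 97.2, 57.8, 65.6 and 38.0 CPM in SKO and 52.0, 57.9, 45.8 and 226 CPM in DKO livers. The WT livers lay close together and all SKO livers were far below them, while DKO 4 stood near WT. The log2 fold change in SKO was -2.14 ± 0.23 (SE, edgeR adjusted p = 5e-05). Slc25a24, another ATP-Mg/phosphate carrier, moved the other way at a much lower level, from 0.650 to 2.34 CPM in WT to 2.08 to 6.68 CPM in SKO livers, with ranges that overlapped and a log2 fold change of 1.38 ± 0.47 (SE, edgeR adjusted p = 0.0426). The call for Slc25a24 was kept in only 3 of 8 removals, with an edgeR adjusted p of up to 0.145. Slc25a25, the third ATP-Mg/phosphate carrier with counts, had 295 to 639 CPM in WT and 120 to 446 CPM in SKO livers, a difference that did not pass (log2 fold change -0.62, adjusted p = 0.214). Slc25a3, the phosphate carrier that supplies ATP synthase, rose by 0.56 ± 0.14 on the log2 scale from 323 to 351 CPM in WT to 387 to 594 CPM in SKO (edgeR adjusted p = 0.0114). For the ADP/ATP translocases, Slc25a4 (ANT1) had a log2 fold change of 0.84 with an adjusted p of 0.0385, a call lost when any of 5 livers was left out, and Slc25a5 had one of 0.22 with an adjusted p of 0.186. The CoA carrier Slc25a16 fell by 0.56 and the peroxisomal carrier Slc25a17 by 0.32 on the log2 scale (adjusted p = 0.0148 and 0.0425), and the call for Slc25a17 was lost in 7 of 8 removals, with an adjusted p of up to 0.115. Scaled by library size alone, neither passed, with log2 fold changes of -0.38 for Slc25a16 and -0.14 for Slc25a17 (adjusted p = 0.0872 and 0.327).

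Among carriers of amino acids, 1 of 8 tested was higher and 4 were lower, against the same shares of all genes, 16.7% and 15.4%. Citrin (Slc25a13) fell by 0.56 ± 0.12 on the log2 scale from 365 to 412 CPM in WT to 235 to 295 CPM in SKO livers (edgeR adjusted p = 0.004). Slc25a15 fell by 0.67 ± 0.16 from 493 to 588 CPM in WT to 260 to 417 CPM in SKO (edgeR adjusted p = 0.00705). Both serve the urea cycle, in which the ornithine carrier returns ornithine to the matrix and citrin supplies aspartate. Slc25a38, the glycine carrier of heme synthesis, fell by 0.64 on the log2 scale and Slc25a44, which carries branched-chain amino acids, by 0.60 (adjusted p = 0.00673 and 0.00248). Slc25a18, a glutamate carrier, rose by 1.28 ± 0.36 on the log2 scale, but from 0.364 to 1.01 CPM to only 1.35 to 2.10 CPM (edgeR adjusted p = 0.0171). Its abundant relative Slc25a22 had a log2 fold change of 0.03 ± 0.22 (SE, adjusted p = 0.923). Slc25a12, the other aspartate/glutamate carrier, had 28.7, 32.6, 22.1 and 23.3 CPM in WT, 30.1, 27.8, 33.3 and 32.6 CPM in SKO and 28.6, 29.7, 22.1 and 18.6 CPM in DKO livers. These groups overlapped, and no comparison of Slc25a12 passed. Slc25a29, a carrier of basic amino acids that lies 14.0 kb from Slc25a47 on chromosome 12, had a log2 fold change of -0.67 and an adjusted p of 0.0518.

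Of the 4 carriers of di- and tricarboxylates, 2 were lower and none higher, beside 15.4% lower over all genes. Slc25a10 had 339, 396, 320 and 391 CPM in WT, 213, 194, 228 and 142 CPM in SKO and 150, 156, 203 and 259 CPM in DKO livers. All knockout livers lay below WT, with DKO 4 nearest to it. The log2 fold change in SKO was -0.90 ± 0.16 (SE, edgeR adjusted p = 0.00126). Slc25a21, which carries oxoadipate from lysine breakdown, fell by 0.59 ± 0.14 on the log2 scale (edgeR adjusted p = 0.00847). The citrate carrier Slc25a1 had a log2 fold change of 0.10 ± 0.11 and the oxoglutarate carrier Slc25a11 one of -0.03 ± 0.12 (SE), and neither passed.

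Among carriers of nucleotides and cofactors, results are given for 5 members. The NAD carrier Slc25a51, the folate carrier Slc25a32, the methyl-donor carrier Slc25a26 and the pyrimidine nucleotide carriers Slc25a33 and Slc25a36 did not pass, with adjusted p from 0.132 to 0.934.

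The mitochondrial iron importers moved in opposite directions. Slc25a28 (mitoferrin-2), the widely expressed form, had 32.2, 33.5, 31.5 and 31.1 CPM in WT, 49.1, 68.1, 52.3 and 69.4 CPM in SKO and 65.4, 48.5, 56.7 and 31.5 CPM in DKO livers. Every SKO liver was above WT, and DKO 4 was within the WT range. The log2 fold change in SKO was 0.89 ± 0.14 (SE, edgeR adjusted p = 0.000456). Slc25a37 (mitoferrin-1), the form best known from red cell precursors, fell by 0.82 ± 0.16 on the log2 scale from 46.2 to 62.4 CPM in WT to 27.3 to 41.9 CPM in SKO livers (edgeR adjusted p = 0.00228). Of 7 erythroid markers, 5 were tested, 2 were called higher and 1 lower in SKO, where 16.7% and 15.4% of all genes were, and the list summed to 113 to 249 CPM in WT and 156 to 533 CPM in SKO; their part in the levels of Slc25a37 and Slc25a38 was not tested. The glutathione carriers Slc25a39 and Slc25a40 had log2 fold changes of 0.36 and -0.38 with adjusted p of 0.0519 and 0.171.

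Among members with no agreed or with a disputed substrate, 2 of 7 tested were higher and 3 lower, beside 16.7% and 15.4% of all genes. Slc25a47 rose from 681 to 863 CPM in WT to 1134 to 2290 CPM in SKO livers, with SKO 3 the lowest of them, and its log2 fold change was 1.15 ± 0.20 (SE, edgeR adjusted p = 0.00126). It made up 13.8 to 17.7% of the RPKM summed over all 49 members in WT, 21.4 to 35.3% in SKO, 34.7 to 37.3% in DKO 1 to DKO 3 and 23.5% in DKO 4. Slc25a45 had 28.9, 31.2, 19.8 and 22.04 CPM in WT, 6.42, 5.53, 8.73 and 6.79 CPM in SKO and 7.86, 4.90, 9.81 and 22.3 CPM in DKO livers. Slc25a48, which has been linked to choline, had 26.8, 28.0, 23.1 and 26.6 CPM in WT, 10.6, 6.96, 8.11 and 5.73 CPM in SKO and 6.12, 6.62, 6.86 and 17.0 CPM in DKO livers. For both genes all SKO livers were below all WT livers and DKO 4 was the highest of the DKO livers. Their log2 fold changes in SKO were -1.89 ± 0.20 and -1.74 ± 0.19 (SE, edgeR adjusted p = 3.6e-05 and 4.5e-05). Slc25a35 had 1.46, 1.39, 0.910 and 1.32 CPM in WT, 0.195, 0.205, 0.312 and 0.168 CPM in SKO and 0.289, 0.368, 1.07 and 0.586 CPM in DKO livers. All WT livers were above all SKO livers, whose values stem from 3 to 6 counts each. Slc25a35 met the filter on low counts only through WT livers, so its values are a description as well. Slc25a46, an outer-membrane member that acts in mitochondrial dynamics, had 55.2, 50.8, 51.9 and 49.9 CPM in WT, 62.6, 60.5, 69.7 and 76.2 CPM in SKO and 59.8, 61.8, 47.1 and 50.05 CPM in DKO livers. SKO lay above WT while DKO overlapped with it, and the log2 fold change in SKO was 0.37 ± 0.11 (SE, edgeR adjusted p = 0.0277). This call was kept in only 3 of 8 removals, with an edgeR adjusted p of up to 0.0977.

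**Figure D3:**
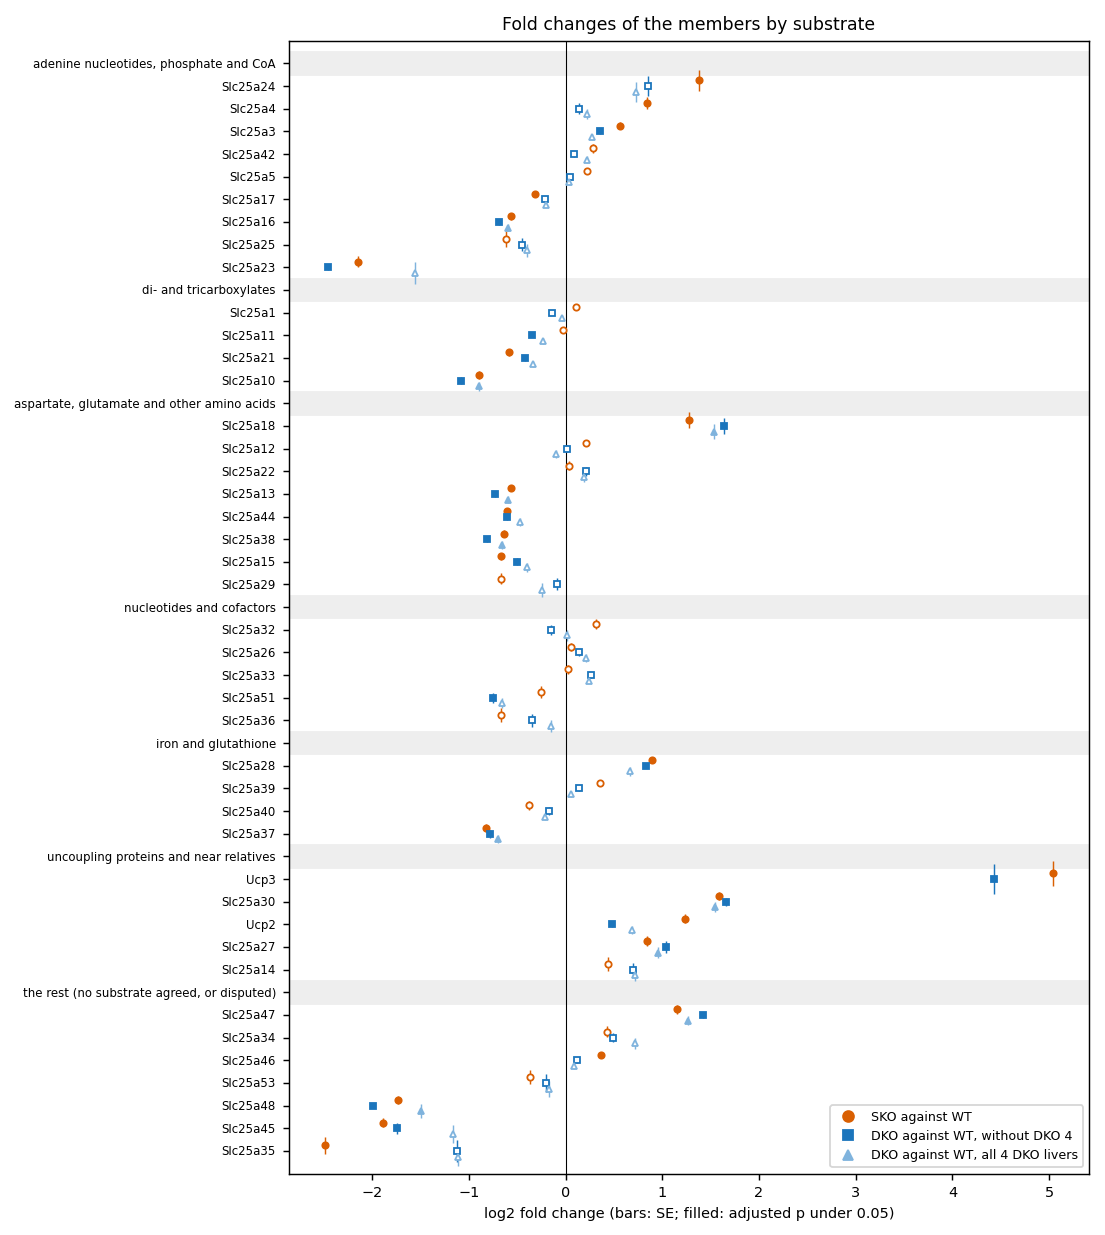
Log2 fold change with its SE for 42 of the members tested, grouped by substrate, for SKO against WT (circles), DKO against WT without DKO 4 (squares) and DKO against WT with all livers (triangles). Filled symbols passed the edgeR test at an adjusted p under 0.05, and Slc25a23 shows the widest gap between the fits with and without DKO 4 (-1.56 against -2.45), while Ucp3 and Slc25a35 entered the SKO test through 1 genotype alone.

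Sequence before the gene starts was searched in all members with a window, because ATF3 belongs to a family that binds cAMP response elements and AP-1 sites. RefSeq windows for GRCm38.p6 matched 38 of the 49 members by symbol, and the 250 bases before the start were searched on both strands for TGACGTCA (cAMP response element), TGANTCA (AP-1), TGATGNAA (core of the C/EBP-ATF composite element) and GCGCATGC (core of the NRF1 site). Over all 32817 windows, 1.55, 6.75, 3.45 and 2.25% held them, in this order. Of 9 members higher in SKO livers with a window, 0 held any of them, and of 10 that were lower, Slc25a13 held TGANTCA and no other match was found. The cAMP response element stood before Slc25a25 and Slc25a36, and AP-1 also before Slc25a11, none of which passed the test in SKO livers. The NRF1 core stood before Slc25a31 and Slc25a54, which did not pass the filter on low counts. A match describes letters and not binding, and no match says nothing of sites outside these windows. The windows printed are those of 3 members higher in SKO, of Slc25a23 as a lower one, and of Slc25a13, which was chosen after the search as the only called member with a match. They lie at chr7:100472741-100472990 (+ strand) for Ucp3, chr14:75787038-75787287 (- strand) for Slc25a30 and chr12:108850879-108851128 (+ strand) for Slc25a47, and at chr17:57059843-57060092 (- strand) for Slc25a23 and chr6:6217174-6217423 (- strand) for Slc25a13. Each is written 5′ to 3′ on the strand of its gene and ends at the base before the start, with matched motifs in capitals, which occur only in Slc25a13.
Ucp3: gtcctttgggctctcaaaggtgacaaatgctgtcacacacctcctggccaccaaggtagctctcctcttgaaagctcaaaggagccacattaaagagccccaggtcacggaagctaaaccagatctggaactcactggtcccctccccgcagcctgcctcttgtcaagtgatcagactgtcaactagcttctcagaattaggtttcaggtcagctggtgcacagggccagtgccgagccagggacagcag
Slc25a30: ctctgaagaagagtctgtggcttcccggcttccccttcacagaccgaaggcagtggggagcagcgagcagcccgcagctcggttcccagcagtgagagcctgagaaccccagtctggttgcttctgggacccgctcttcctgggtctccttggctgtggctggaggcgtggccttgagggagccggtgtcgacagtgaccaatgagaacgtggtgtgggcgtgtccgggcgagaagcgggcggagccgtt
Slc25a47: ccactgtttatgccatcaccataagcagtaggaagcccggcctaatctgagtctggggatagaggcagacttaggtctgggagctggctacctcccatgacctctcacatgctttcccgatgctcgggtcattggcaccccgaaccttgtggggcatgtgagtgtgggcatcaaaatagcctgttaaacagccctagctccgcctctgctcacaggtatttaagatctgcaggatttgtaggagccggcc
Slc25a23: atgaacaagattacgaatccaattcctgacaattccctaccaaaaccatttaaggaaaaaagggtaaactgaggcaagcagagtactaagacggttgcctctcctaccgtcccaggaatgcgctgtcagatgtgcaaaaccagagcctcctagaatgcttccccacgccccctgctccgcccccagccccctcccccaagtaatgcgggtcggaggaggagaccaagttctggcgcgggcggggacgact
Slc25a13: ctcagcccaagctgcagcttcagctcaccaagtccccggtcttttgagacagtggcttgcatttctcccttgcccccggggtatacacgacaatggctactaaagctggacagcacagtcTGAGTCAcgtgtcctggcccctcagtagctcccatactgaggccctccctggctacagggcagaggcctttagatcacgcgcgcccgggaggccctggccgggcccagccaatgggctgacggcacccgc

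The DKO livers were set against the same 4 WT livers, so that this comparison shares its controls with the one above. With all 4 DKO livers, 4 of 42 members tested were higher and 6 lower, which are 9.52% and 14.3% of the members, where 6.06% and 4.39% of all genes were called. The higher members were Slc25a30 (log2 fold change 1.54 ± 0.22), Slc25a47 (1.26 ± 0.21), Slc25a18 (1.53 ± 0.34) and Slc25a27 (0.96 ± 0.25, each SE). The lower members were Slc25a10, Slc25a13, Slc25a16, Slc25a37, Slc25a38 and Slc25a48, with log2 fold changes from -1.49 to -0.59. Each DKO liver lay above each WT liver for 7 members and below for 12, where 7.72% and 9.05% of all genes tested did. Scaled by library size alone, which raised all log2 fold changes by a median of 0.174, 8 members were called higher and 2 lower, where 12.4% and 3.25% of all genes were.

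Without DKO 4, 8 of 43 members were higher and 14 lower than WT, which are 18.6% and 32.6%, where 18.4% and 17.5% of all genes were called. Slc25a23 then had a log2 fold change of -2.45 ± 0.11 (SE, edgeR adjusted p = 2.6e-07), against -1.56 ± 0.48 and an adjusted p of 0.0674 with DKO 4. Slc25a45 had one of -1.74 ± 0.24 (SE, edgeR adjusted p = 0.000253), against -1.16 ± 0.40 and an adjusted p of 0.0904. The 8 include Ucp3, which met the filter on low counts only through DKO livers and did not meet it with all 8 livers of this comparison. Without Ucp3, 7 of 42 members were called higher and 14 lower. The scaled counts of Ucp3 over DKO 1 to DKO 3 were 22.8 times those of WT, with an exact 95% interval of 11.3 to 53.8 for counting error. Ucp2 had a log2 fold change of 0.48 ± 0.13 in DKO without DKO 4 (SE, edgeR adjusted p = 0.0164), against 0.69 ± 0.20 and an adjusted p of 0.0541 with it. The NAD carrier Slc25a51 had a log2 fold change of -0.75 ± 0.21 (adjusted p = 0.0182) and Slc25a11 one of -0.35 ± 0.09 (adjusted p = 0.0147) without DKO 4, against -0.66 and -0.23 with it, which did not pass. Of the 10 calls with all livers, Slc25a30 kept its call in all 8 removals of a liver and Slc25a47 in 6, while the others lost theirs in 6 or 7.

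To describe each DKO liver, its log2 CPM was placed between the WT mean at 0 and the SKO mean at 1 over the 25 members called in SKO against WT. These members were chosen by the contrast that sets the scale, so the values only compare DKO livers with each other. The median position was 0.891 in DKO 1, 0.822 in DKO 2, 0.942 in DKO 3 and 0.470 in DKO 4. The 25 include Ucp3 and Slc25a35, which met the filter on low counts through 1 genotype alone. The median in DKO 4 is the position of Slc25a35. DKO 4 was nearer to WT than to SKO for 14 of the 25 members, and the other DKO livers for 2, 5 and 4. Ucp3 and Slc25a35 are among the 14, at 0.35 and 0.47, and Slc25a35 is among the 4 of DKO 3. DKO 4 was the highest DKO liver for 10 of the 14 members that fell in SKO and the lowest for 7 of the 11 that rose. The same counts were not made over all genes. Over genes with counts, the chi-square per degree of freedom was 194 to 231 between DKO 4 and the other DKO livers. Among those others it was 27.7 to 33.3, so DKO 4 stood apart over the whole count table and not only in the carriers. The Atf3 level, the Xist counts and the summed hepatocyte, cholangiocyte and macrophage markers given above also set DKO 4 apart from the other DKO livers, and their part in these values was not tested. Not every marker followed its sum, as Apoa1 (5130 CPM), Sox9 (0.799 CPM) and Cd68 (9.48 CPM) were lowest in DKO 4 among DKO livers.

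**Figure D4:**
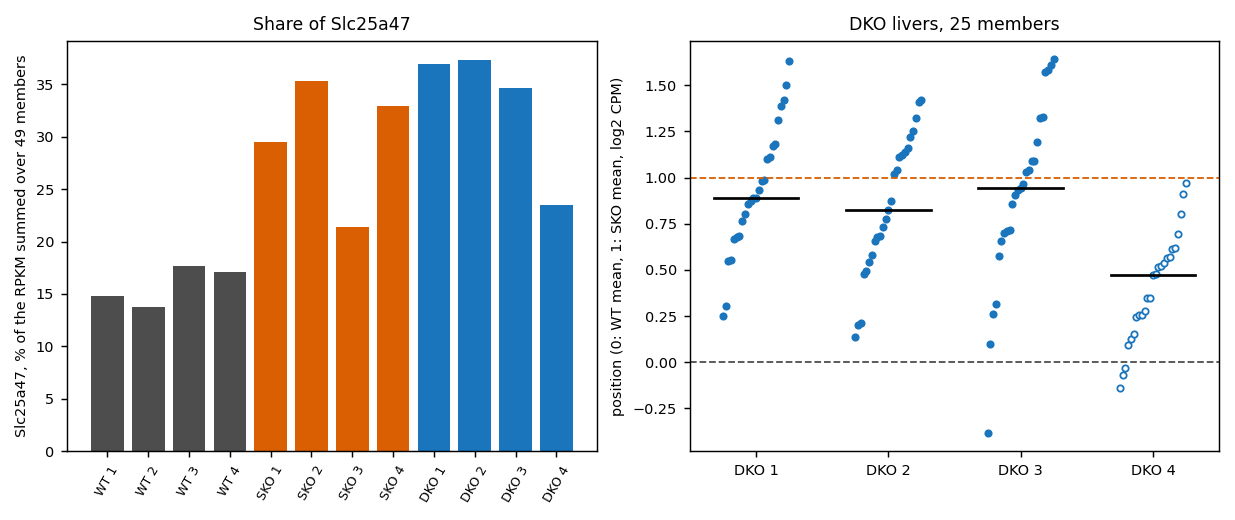
Left, percent of the RPKM summed over the 49 members that Slc25a47 took in each liver. Right, position of each DKO liver between the WT mean (0) and the SKO mean (1) in log2 CPM for the 25 members called in SKO against WT, with a bar at the median, which was 0.470 in DKO 4 (open circles) and 0.822 to 0.942 in the others. Ucp3 and Slc25a35, which entered the SKO test through 1 genotype alone, are among the 25.

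The labels of DKO and SKO differ by the deletion of Atf3, whose level was lower in every DKO liver than in every SKO liver. Without DKO 4 the values rest on livers in which Atf3 was still above WT. None of 42 members tested passed by edgeR, and the smallest adjusted p was 0.749. Over all genes, 0.00696% were called higher and 0.0139% lower. At an unadjusted p under 0.05 by edgeR, 1 member was higher and 1 lower, where 4.11% and 2.38% of all genes were. DESeq2 also called none, with 2 members higher and 3 lower at an unadjusted p under 0.05, where 3.1% and 1.72% of all genes were. These DESeq2 shares are over 28396 genes, without the filter on low counts, and those of edgeR over 14363. Without DKO 4 none passed either, with 0.0617% and 0.0411% of all genes called. The SE of the log2 fold changes ran from 0.12 to 0.53, so the lack of calls does not show that the levels were equal. What size of difference could be detected was not tested.

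Members with small p in that comparison included Slc25a4, Ucp2, Slc25a46 and Slc25a12. Slc25a4 had 4.47, 6.01, 3.19 and 5.44 CPM in WT, 5.91, 7.72, 13.4 and 7.24 CPM in SKO and 5.35, 5.02, 5.39 and 6.28 CPM in DKO livers. SKO 3 was the highest of the 12, and DKO overlapped with both other genotypes. Its log2 fold change in DKO against SKO was -0.61 ± 0.27 (SE, edgeR unadjusted p = 0.0425, adjusted p = 0.749). Ucp2 had one of -0.54 ± 0.26 (SE, edgeR adjusted p = 0.777), which was -0.76 ± 0.23 without DKO 4 (adjusted p = 0.44). No member had all DKO livers above all SKO livers, and 2 had all below, where 2.08% and 1.86% of all genes tested did. These were Slc25a5, at 502 to 606 CPM in SKO and 475 to 500 CPM in DKO, and Slc25a39, at 564 to 718 CPM in SKO and 400 to 562 CPM in DKO livers. Their log2 fold changes of -0.17 ± 0.15 and -0.30 ± 0.17 (SE) did not pass.

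Genes for related mitochondrial transport were also counted, namely 31 genes for pyruvate and serine carriers, calcium transport, porins, import chaperones, ABC transporters and Slc25a20. Of 29 tested, 6 were higher and 5 lower in SKO than in WT, where 16.7% and 15.4% of all genes were, with a median log2 fold change of 0.10. Mpc1, a subunit of the pyruvate carrier, rose by 1.15 ± 0.18 on the log2 scale (SE, edgeR adjusted p = 0.000682). The sideroflexins Sfxn2 and Sfxn5 fell by 1.26 ± 0.16 and 1.31 ± 0.14 on the log2 scale (SE, edgeR adjusted p = 0.000161 and 5.4e-05), and the serine carrier Sfxn1 fell by 0.41 ± 0.14. Slc25a20 rose by 0.47 ± 0.14 on the log2 scale (SE, edgeR adjusted p = 0.025). In DKO livers 1 of these genes was higher and 2 were lower than in WT with all livers, where 6.06% and 4.39% of all genes were. Without DKO 4, 4 were higher and 10 lower, where 18.4% and 17.5% of all genes were. None differed between DKO and SKO by edgeR.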

How the data were processed

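Liver RNA-seq was done on 12 mice, 4 of each genotype, with RNA extracted by TRIzol and RNeasy columns and libraries made and sequenced by Novogene. Raw read counts of 56748 genes, not normalized, were deposited by the authors. HISAT2 and the builds GRCm38 and mm10 stand in the submitters' processing notes, while the counting program and the use of strand are not given in the sources used here. Only 1472 of 52073 genes shared with GENCODE M21 have the same start and end there, so coordinates of the table are not printed. A deposited FPKM table was not used because counts are at hand, and deposited tables of the authors' own comparisons, which hold fold changes and p-values, were not used. Genes were compared between genotypes with edgeR 4.0.16 in R 4.3.3 (filterByExpr, TMM within the livers compared, two-sided quasi-likelihood test) and Benjamini-Hochberg adjustment over all genes tested. SE is the absolute log2 fold change divided by the square root of the F statistic, and the test was checked on simulated counts. Levels are CPM with TMM over 12 livers, and RPKM divides them by the gene length in the table. Groups came from the genotype labels, replicates are livers with separate labels, and all 12 livers were kept. Within a genotype the chi-square per degree of freedom between livers was at least 18.5, so none was a copy. The members and lists were chosen with earlier results of these data known. Values per liver are given for the 10 members with the smallest p in SKO against WT, the 5 in DKO against SKO and Ucp2, apart from 1 member that is counted but not reported here. Alternatives were DESeq2 1.42.0, RLE factors, no filter, all 12 livers in 1 fit, the replicate number as a block, each liver left out, only livers with Y-linked counts, and scaling by library size alone, which for the test was chosen after seeing the data. P-values measure the spread between these livers. Promoter windows are those of RefSeq, and protein sequences were not used here.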

Additional observations from a re-analysis of the deposited data

Results flagged for a closer look

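For the 12 members whose values are given per liver, the gap between the highest or lowest liver and its nearest neighbor was divided by the range of the 4 livers of a genotype and compared with Dixon's critical value for 95% confidence. Chance passes about 1 in 20 such groups, and 3 of 36 passed. In DKO livers, DKO 4 was set apart above the rest for Slc25a23 (ratio 0.933) and Slc25a48 (ratio 0.932), both lower in SKO than in WT. In SKO livers, SKO 3 was set apart above the rest for Slc25a30 (ratio 0.903). SKO 3 and DKO 4 are the livers with Xist counts.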

How the results depend on the processing

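In SKO against WT the number of members called stayed within 1.5 times the 25 in every alternative, from 19 to 25 when a liver was left out, and no member called changed direction. In DKO against WT the 10 calls became 17 with DESeq2 and 22 with only livers with Y-linked counts, which is the set without DKO 4, and ranged from 1 to 22 when a liver was left out, with 22 without DKO 4 and 1 or 2 without WT 1, WT 2, WT 4, DKO 1, DKO 2 or DKO 3. Over all genes edgeR called 1510 of 14448 with all livers, or 10.5%. The share was 35.9% without DKO 4 and 1.63 to 2.73% in those 6 removals. DESeq2, run without the filter on low counts, called 2509 of 28551 genes, so its share of 8.79% has another denominator. The cause of the lost calls was not tested. In DKO against SKO no alternative called a member, and with library size alone the members whose groups did not overlap went from 2 to 1. The replicate block gave 22 calls in SKO against WT, 8 in DKO against WT and 0 in DKO against SKO. For livers with the same replicate number, correlations of their deviations from the genotype mean ran from -0.347 to 0.0982. With 4 livers per genotype these values do not tell whether such livers shared a litter, day or batch. Library size alone moved the log2 fold changes of all genes by a median of 0.174 in SKO against WT and the same in DKO against WT. At this depth, 6 members with at most 9 counts in any liver did not pass the filter on low counts. Without that filter, 46 to 48 members were tested per comparison.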

Other observations

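SKO 3 and DKO 4, the livers with Xist counts, were both the highest of their genotype in CPM for 6 of 42 members tested in both comparisons with SKO, namely Slc25a4, Slc25a10, Slc25a34, Slc25a36, Slc25a45 and Ucp2. They were both the lowest for 4, namely Slc25a18, Slc25a27, Slc25a33 and Slc25a47. Over 14012 genes the shares were 11.1% for the highest and 13.8% for the lowest. These counts were made after the values had been seen.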
